A study of Mus musculus with 7 samples.

Results

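The cells described here are the middle layer 4/5 intratelencephalic excitatory neurons of mouse frontal cortex, as defined by a gate on raw counts of unique molecular identifiers (UMIs). A cell entered with at least 2 UMIs of Slc17a7, at most 1 UMI of Gad1 and Gad2 together, and at least 2 of the 4 genes Rorb, Rspo1, Etv1 and Deptor detected. It also had to hold 0 UMIs of Foxp2 and of Fam84b, fewer than 2 UMIs of Tshz2, and fewer than 2 of the genes Ctgf, Cplx3 and Nxph4 detected. The gate took 1372 of 32985 cells, and 10396 cells passed its first 2 conditions and are called excitatory neurons below. Scrublet called 50 of the 1372 cells as doublets, which left 1322 members among 10013 excitatory neurons. The 13 genes of the gate chose the cells, so their values are given as a description and were not tested.

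Single-cell libraries were prepared with droplet 3′ chemistry (10x Genomics, version 2) from the ventromedial prefrontal cortex (PFC, excised by hand) and the motor cortex (MC) of B6129SF1/J mice at postnatal day 30, housed in 12 h of light and 12 h of dark. Each library came from 1 brain, and the labels do not say whether any PFC and MC libraries share an animal. Every animal carried the Opn4-Cre/+ allele, in which the melanopsin gene drives Cre recombinase. The controls (CTRL) were Opn4-Cre/+; Brn3b-+/+ and the ablated animals (DTA) were Opn4-Cre/+; Brn3b-zDTA/+, so that diphtheria toxin is made where both genes are active, which are intrinsically photosensitive retinal ganglion cells in the eye. There were 2 PFC CTRL, 3 PFC DTA, 1 MC CTRL and 1 MC DTA libraries. The ablation itself was not checked, since the retina was not analysed here.

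Intratelencephalic neurons are glutamatergic cells whose axons stay within the telencephalon, where they link cortical areas and reach the striatum. Those of layer 4 receive thalamic input in sensory areas and express the nuclear receptor Rorb, whereas those of layer 5 express the ETS transcription factor Etv1 and the mTOR inhibitor Deptor. Motor and medial prefrontal cortex are known as areas in which layer 4 is thin or indistinct. Their neighbours are the intratelencephalic cells of layers 2 and 3, the extratelencephalic cells of layer 5 that project to the brainstem and spinal cord, and the corticothalamic cells of layer 6.

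The libraries were unequal in depth. Library totals ran from 6180059 to 30972905 UMIs, the members' summed counts from 275475 UMIs in PFC DTA replicate 1 (39 cells) to 5687546 UMIs in PFC DTA replicate 2 (296 cells), and the members' median from 6748 to 21498 UMIs per cell. Members were deeper than the excitatory neurons of their own library, by 1.32 to 1.68 times in 6 libraries and by 2.87 times in PFC DTA replicate 3. Pairs of libraries shared 7 to 92 cell barcodes. Markers of other cells were summed as CPM, which are counts scaled to the same total of member UMIs in each library. The 8 oligodendrocyte markers summed to 133 to 288 CPM in 6 libraries and to 1413.5 CPM in MC CTRL, where 4 of 295 cells held 2911 of their 3864 UMIs. The 11 inhibitory markers summed to 22.7 to 141 CPM, the 9 microglial markers to 24.8 to 57.1 CPM, and the 8 blood cell markers to 86.5 to 131 CPM in 5 libraries, 767 CPM in PFC CTRL replicate 2 and 944 CPM in PFC DTA replicate 1. The 10 astrocyte markers summed to 683 to 979 CPM.

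The 5 genes that mark the members lie on different chromosomes of the mouse genome (GRCm38, mm10, RefSeq annotation). Slc17a7, the vesicular glutamate transporter that marks most cortical excitatory neurons, spans chr7:45163921-45176139 and stood at 947 to 1406 CPM in the members. Rorb spans chr19:18930609-19111196. Its level was 50.8 and 85.96 CPM in the control and 76.2, 113 and 53.3 CPM in the DTA libraries of the PFC, and 215 (CTRL) and 224 CPM (DTA) in the MC, so both MC libraries lay above all 5 PFC libraries. Rspo1, which encodes a secreted enhancer of Wnt signalling, spans chr4:124986401-125009102. Its level was 9.12 and 9.03 CPM in the control and 25.4, 7.21 and 23.5 CPM in the DTA libraries of the PFC, and 49.4 (CTRL) and 29.3 CPM (DTA) in the MC. Both control libraries and 1 DTA library of the PFC lay below 10 CPM, and the other 2 DTA libraries lay above 20 CPM.

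Etv1 spans chr12:38780082-38870483. Its level was 351 and 408 CPM in the control and 574, 270.4 and 217 CPM in the DTA libraries of the PFC, and 259 (CTRL) and 170.2 CPM (DTA) in the MC. MC CTRL lay inside the PFC range and MC DTA below it. Deptor spans chr15:55112317-55259273. Its level was 134 and 136 CPM in the control and 152, 83.2 and 98.7 CPM in the DTA libraries of the PFC, and 105 (CTRL) and 65.3 CPM (DTA) in the MC, with MC CTRL inside the PFC range and MC DTA below it.

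Free RNA can place a UMI in a cell that does not express the gene, and microglia served as the reference for it. Rorb was detected in 41.0 to 94.1% of members and in 0 to 3.501% of microglia, Rspo1 in 5.95 to 30.2% against 0 to 1.08%, Etv1 in 70.5 to 94.9% against 3.25 to 12.3%, and Deptor in 38.1 to 85.0% against 0 to 5.00%. Microglia were shallower, with medians of 1011 to 3264 UMIs. Of the 1322 members, 981 held exactly 2 of the 4 markers and 341 held at least 3. Another 2329 excitatory neurons met every other condition with 1 marker. Among the cells just inside this threshold Etv1 stood at 101 to 639 CPM and Rorb at 37.3 to 217 CPM, and among those just outside it at 52.3 to 344 CPM and 15.9 to 94.9 CPM.

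Detection of Etv1 and detection of Rorb overlapped among members. In microglia, the reference for free RNA, Etv1 stood at 29.4 to 70.6 CPM and Rorb at 0 to 25.6 CPM. The part of free RNA and of depth per cell in this overlap was not tested. The most frequent marker combinations were Etv1 with Deptor in 386 members (29.2%), Rorb with Etv1 in 337 (25.5%), and Rorb with Etv1 and Deptor in 264 (19.97%). Rorb with Rspo1 was found in 127 members (9.61%) and Rorb with Deptor in 110 (8.32%). Cells with Rorb and no Etv1 UMI (Rorb-type) made up 18.3 and 10.4% of members in the control and 5.13, 14.2 and 18.8% in the DTA libraries of the PFC, and 29.5% (CTRL) and 23.8% (DTA) in the MC. Cells with Etv1 and no Rorb UMI (Etv1-type) made up 58.1 and 48.0% in the control and 59.0, 23.0 and 54.7% in the DTA libraries of the PFC, and 18.0% (CTRL) and 5.94% (DTA) in the MC. Both MC libraries held a larger Rorb-type and a smaller Etv1-type share than every PFC library. With each cell thinned to 2000 UMIs, the mean Rorb-type share was 38.6% in the MC and 4.93% in the PFC (26.6 and 13.4% from all UMIs), and the mean Etv1-type share 20.6% and 68.4% (11.95 and 48.5% from all UMIs). Thinning left out cells below 2000 UMIs and applied the whole gate anew to the rest. The thinned means rest on few cells. PFC libraries held 0 to 2 Rorb-type cells each among 12 to 43 members, and MC libraries 16 of 44 (CTRL) and 11 of 27 (DTA). These shares rest on genes of the gate and carry no test.

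Members made up 12.6 and 8.69% of excitatory neurons in the control and 6.85, 18.9 and 9.70% in the DTA libraries of the PFC, and 14.6% (CTRL) and 28.6% (DTA) in the MC. The PFC groups overlapped, at 10.7 ± 2.79% (SD, n = 2) for CTRL and 11.8 ± 6.30% (SD, n = 3) for DTA, a difference of 1.16 percentage points (two-sided exact permutation p = 0.9 over 10 splits, smallest possible p 0.1). Without PFC DTA replicate 2 that difference became -2.38 points, and without PFC CTRL replicate 2 it became -0.81 points. The MC share of 21.6 ± 9.89% (SD, n = 2) exceeded the PFC share of 11.4 ± 4.71% (SD, n = 5) by 10.2 points, and MC CTRL lay inside the PFC range (two-sided exact permutation p = 0.0952 over 21 splits). By the same exact permutation test, the difference was 3.23 points without MC DTA (p = 0.667) and 17.2 points without MC CTRL (p = 0.167). With each cell thinned to 2000 UMIs the shares were 2.96 and 2.69% in the control and 4.60, 3.68 and 2.26% in the DTA libraries of the PFC, and 3.73% (CTRL) and 6.0% (DTA) in the MC. The excitatory neurons counted fell as well, from 3095 to 1598 in PFC CTRL replicate 2 and from 707 to 450 in MC DTA. The area difference was then 1.63 points (exact permutation p = 0.143).

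**Figure D1:**
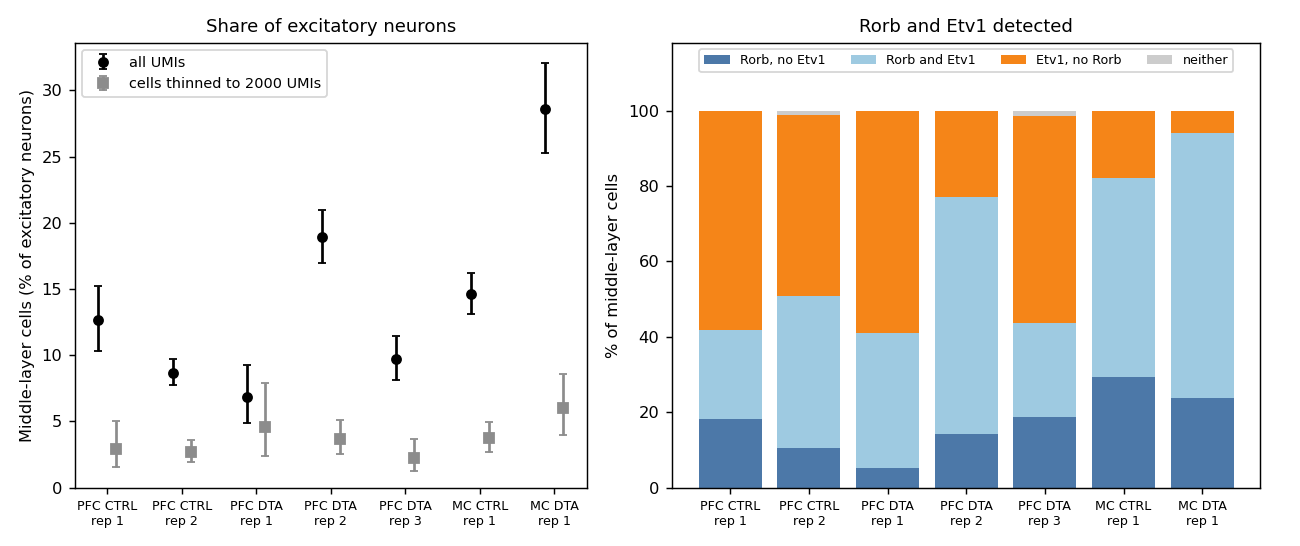
Left, members as a percentage of excitatory neurons per library, from all UMIs (black circles) and with cells thinned to 2000 UMIs (grey squares). Thinning left out cells below 2000 UMIs. Bars are exact Clopper-Pearson 95% intervals that cover counting error only. Right, percentage of members with Rorb, Etv1, both or neither detected; the Etv1-only part is 23.0 to 59.0% in the PFC libraries and 18.0% and 5.94% in the MC libraries.

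Members were next compared with the other 8691 excitatory neurons, with UMIs summed per library and population and the library kept as a block. The gate used none of the genes compared, but it sorts cells into classes, so genes that go with the gate genes had to differ and these fits describe the members' profile. By edgeR's quasi-likelihood test at an adjusted p below 0.05, 1681 genes (14% of 12009 tested) were higher in members and 1532 (12.8%) were lower. Susd5 stood at 15.3 to 29.2 CPM (median 20.3) in members against 2.05 to 6.55 CPM in the other excitatory neurons (log2 2.23, SE 0.165). The sodium, potassium and calcium exchanger Slc24a3 stood at 107 to 185 CPM (median 164) against 27.7 to 48.2 CPM (log2 1.89, SE 0.103). The calcium-binding protein gene S100b stood at 30.96 to 109.8 CPM (median 64.9) against 14.5 to 27.6 CPM (log2 1.82, SE 0.122). Ranges did not overlap for any of these 3 genes. S100b is best known from astrocytes, of whose 8 tested marker genes 1 was higher and 1 lower in members.

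Further genes higher in members had known roles in signalling. They were Hrh3, the histamine H3 receptor, at 53.7 to 112 CPM (median 79.9) against 19.4 to 52.6 CPM (log2 1.54, SE 0.0914), and Opn3, an opsin of brain and other tissues, at 23.9 to 68.97 CPM (median 40.4) against 6.496 to 18.5 CPM (log2 1.62, SE 0.139). Klhdc8a, Dkkl1 and Ptgfrn had log2 differences of 1.78, 1.67 and 1.64. Lower in members were the synaptotagmin Syt6 (log2 -3.57), the immunoglobulin heavy chain gene Ighm (-3.44), the neurexophilin Nxph3 (-2.63), the semaphorin Sema5a (-2.53), Rnf152 (-2.58) and the collagen gene Col6a1 (-1.95). Penk, the enkephalin precursor, stood at 0 to 9.496 CPM (median 4.39) in members against 22.4 to 49.3 CPM (log2 -2.90, SE 0.369). The lipoprotein lipase gene Lpl stood at 2.61 to 18.2 CPM (median 8.26) against 21.7 to 49.1 CPM (log2 -1.99, SE 0.126).

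Gene lists described the members by cortical class, with lists that were chosen knowing earlier results of these data. Over all genes tested, 14% were higher and 12.8% lower in members. Of 13 genes known from middle-layer intratelencephalic cells and outside the gate, 9 had enough counts to be tested, and 6 were higher and 0 lower in members (median log2 0.76, against -0.01 over all genes tested). They were Il1rapl2, Pde1a, Plcxd2, Kcnh5, Whrn and Hsd11b1. Scnn1a, a widely used layer 4 gene, was among the 4 that did not pass the filter on low counts. Of 11 upper-layer genes 0 were higher and 7 lower (median -0.78), of 8 corticothalamic genes 0 and 7 (median -1.21), of 6 layer 5 extratelencephalic genes 0 and 3 (median -0.44), and of 3 layer 6 intratelencephalic genes 0 and 3 (median -3.25). The gate excluded Foxp2 from members, and Foxp2 was detected in 9.24 to 28.1% of the other excitatory neurons. Lower corticothalamic genes in members therefore follow in part from the gate. The 12 genes of general intratelencephalic identity gave 6 higher and 3 lower, with Slc30a3, Ptn, Lmo4, Plxnd1 and Pou3f2 among the higher and Lpl, Pou3f1 and Inhba the lower. All 7 tested microglial markers and 5 of 6 endothelial markers were lower in members. Within the gate, Etv1 was detected in more members than Rorb in all 5 PFC libraries, and Rorb in more members than Etv1 in both MC libraries. In members, layer 5 near-projecting genes summed to 110 to 265 CPM in the PFC libraries and 28.5 (CTRL) and 59.1 CPM (DTA) in the MC. Extratelencephalic genes summed to 374 to 494 CPM, and 125 and 224 CPM. Layer 6b genes outside the gate summed to 11.6 to 48.3 CPM, and 7.68 and 8.35 CPM. The part of such a mix of classes in the area differences was not tested.

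Receptor, channel and synapse genes were counted by list, and no function was measured. Over all genes tested, 14% were higher and 12.8% lower in members. Of 20 AMPA and kainate receptor genes, 3 were higher in members (Cacng2, Cnih3 and Gria4) and 13 lower, among them the subunits Gria1, Gria2 and Gria3 (median -0.23). Transmitter release genes went the other way, with 14 of 29 higher, among them Syn1, Syn2, Syt1, Vamp2 and Snap25, and 4 lower (median 0.17). Synaptic adhesion genes had 13 of 39 higher, led by Cntnap2, Tenm4 and Lrrc4c, and 3 lower. Potassium channel genes were split, with 16 higher (Kcnq3, Kcna2 and Kcnb2 first) and 15 lower (Kcna1, Kcnk1 and Kcnk3 first) of 52. Axon guidance genes had 10 higher, among them Epha4, Robo2 and Unc5c, and 19 lower, among them Nrp1, Robo1 and Sema5a, of 48. Of 24 neuropeptide and receptor genes 3 were higher (Crhr1, Sstr3 and Adcyap1) and 10 lower, including the peptide genes Penk, Pdyn, Grp and Sst.

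Transcription factors and the pathways of the gate genes were counted too, against 14% higher and 12.8% lower over all genes tested. Of 39 area and layer transcription factors 18 were higher, among them Foxp1, Nr2f1, Tshz1, Rora and Lhx2, and 10 were lower, among them Tle4, Id2, Nfia, Sox5 and Bcl11b. The Wnt pathway, on which Rspo1 acts, had 9 of 21 genes higher, including the ligands Wnt9a, Wnt4 and Wnt7b, the related enhancer Rspo2 and β-catenin (Ctnnb1), and 2 lower (Wnt10a and Frzb). The mTOR pathway, which Deptor inhibits, had 2 of 22 higher, among them Ulk1, and 3 lower (Sgk1, Telo2 and Rps6kb2). These counts are near the shares over all genes and do not set the pathway apart. Clock genes had 8 of 18 higher, led by Nr1d1, Rora and Dbp, and Cry1 lower. Members were deeper per cell than the other excitatory neurons in every library. With the other cells matched to the members in UMIs per cell, 2690 genes were called in place of 3213. Equal numbers of cells across libraries, 39 members and 505 other excitatory neurons in each, gave 1333 calls. The gate applied to cells thinned to 2000 UMIs, which leaves far fewer members, gave 184.

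Against 3087 upper-layer cells, which passed the same exclusions with fewer than 2 gate markers and at least 2 of Cux2, Calb1, Otof, Lamp5 and Rasgrf2, 2110 genes (18.8% of 11207) were higher in members and 2094 (18.7%) lower. Pcp4, a calmodulin-binding protein gene of deep layers, stood at 1322 to 3488 CPM (median 2563) in members and 322 to 698 CPM in upper-layer cells (log2 2.44, SE 0.0973). S100b (log2 2.998), Susd5 (log2 2.83), Slc24a3 (2.55), Tmem91 (2.42) and Opn3 (2.37) were also higher in members, with no overlap between the populations' ranges. Lower in members were the opioid precursors Penk (-3.29) and Pdyn (-3.04), Lpl (-2.80), Strip2 (-2.41), the insulin-like growth factor binding protein Igfbp2 (-2.40) and the matrix protein gene Matn2 (-2.24). Lpl stood at 2.61 to 18.2 CPM in members and 39.3 to 84.05 CPM in upper-layer cells.

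Against 849 layer 6 corticothalamic cells, which held Foxp2 and Syt6 or Tle4, 1817 genes (18.4% of 9884) were higher in members and 1555 (15.7%) lower. Of 11 intratelencephalic identity genes 10 were higher and 0 lower (median log2 1.95). Slc30a3, the zinc transporter of synaptic vesicles, stood at 145 to 234 CPM (median 189) in members, 166 to 219 CPM in upper-layer cells and 4.21 to 24.8 CPM in corticothalamic cells (log2 3.51, SE 0.209 against the last). Fam60a (4.08), Ptgfrn (3.92), Tcap (3.89) and Tmem200c (3.53) were higher too. The adaptor gene Sla (-5.16), Ighm (-5.15), the homeobox gene Sebox (-4.70), Sema5a (-4.50), Nxph3 (-4.37) and Lsp1 (-4.32) were lower. Pcp4 placed the members between the neighbours, with 4472 to 7649 CPM in corticothalamic cells.

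Over all genes tested, 18.4% were higher and 15.7% lower in members against corticothalamic cells. Against upper-layer cells the shares were 18.8% and 18.7%. Ribosomal protein genes gave 1 higher and 46 lower of 83 against corticothalamic cells (median -0.18), and 1 higher and 14 lower against upper-layer cells. Clock genes gave 12 higher and 0 lower of 18 against corticothalamic cells, and 4 higher and 3 lower against upper-layer cells. The 14 lower ribosomal protein genes and both clock gene counts against upper-layer cells are near the shares over all genes. Intratelencephalic identity genes gave 3 higher, among them Plxnd1 and Pou3f3, and 4 lower (Lpl, Inhba, Pou3f1 and Cux1) of 11 against upper-layer cells (median -0.06). Of 6 corticothalamic genes 5 were higher in members than in upper-layer cells (Rprm, Tbr1, Hs3st4, Tle4 and Zfpm2). The comparisons share the member libraries. Of 9855 genes tested in both, 688 were higher in members than in both neighbours (32.6% of the genes higher than in upper-layer cells and 37.9% of those higher than in corticothalamic cells), and 419 were lower (20.01% and 26.9%).

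**Figure D2:**
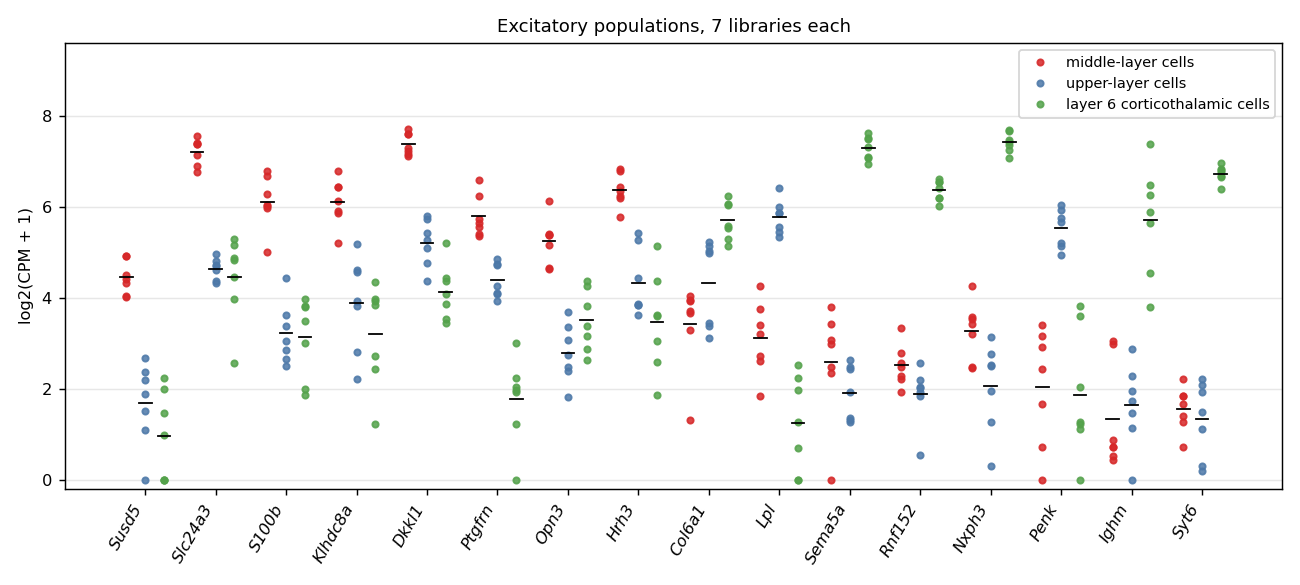
Levels, as log2(CPM + 1), of the 16 genes named for the comparison of members with other excitatory neurons, in members (red), upper-layer cells (blue) and layer 6 corticothalamic cells (green); each point is 1 library and each bar the mean of 7. Slc24a3 lies at 107 to 185 CPM in members, above all upper-layer and corticothalamic values, and Nxph3 is low in members and upper-layer cells and high in corticothalamic cells.

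Among the members themselves, the 248 Rorb-type cells were compared with the 409 Etv1-type cells in 6 libraries; PFC DTA replicate 1 had 2 Rorb-type cells and was left out of this fit. As Rorb and Etv1 defined the types, these differences describe the genes that go with them. By edgeR, 451 genes (5.81% of 7756) were higher in Rorb-type cells and 454 (5.85%) lower. The types also differed in depth. Rorb-type cells had the lower median of UMIs per cell in MC CTRL (6117 against 10204). The same held in every other library fitted except PFC DTA replicate 3 (23184.5 against 16595.5). The part of depth in these differences was not tested. Brinp3 stood at 115 to 623 CPM (median 179) in Rorb-type and 10.5 to 67.6 CPM (median 32.9) in Etv1-type cells (log2 2.78, SE 0.214). Ddit4l, a stress-induced inhibitor of mTOR, stood at 13.02 to 124 CPM (median 61.7) against 0 to 19.7 CPM (median 4.95) (log2 3.59, SE 0.2900). The orphan receptor Gpr83 (2.79) and Ptchd4 (2.49) were also higher in Rorb-type cells. The calcium-binding protein gene S100a6 (log2 2.35, SE 0.507, adjusted p = 0.0364) and the troponin gene Tnnc1 (log2 2.29, SE 0.412, adjusted p = 0.0184) were called as well, but S100a6 lost its call when any 1 of 5 libraries was left out and Tnnc1 when PFC CTRL replicate 2 or MC DTA was.

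Etv1-type cells were higher in 2 transcription factors that are counted here among the layer 5 extratelencephalic genes. Whether the Etv1-type members include extratelencephalic cells was not tested. Fezf2 stood at 50.7 to 112 CPM (median 72.3) in Etv1-type and 4.99 to 42.8 CPM (median 11.7) in Rorb-type cells (log2 -2.13, SE 0.223), and the ranges did not overlap. Bcl11b stood at 20.3 to 108 CPM (median 28.1) against 0 to 24.9 CPM (median 3.06) (log2 -2.93, SE 0.342). S100b was at 40.6 to 76.5 CPM (median 70.2) in Etv1-type and 0 to 21.3 CPM (median 8.65) in Rorb-type cells (log2 -2.41, SE 0.266), again with no overlap. Nnat, an imprinted gene (-2.75), St3gal1 (-2.22) and Gadd45a (-2.14) were higher in Etv1-type cells as well.

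Layer genes differed between the types in both directions. Over all genes tested, 5.81% were higher and 5.85% lower in Rorb-type cells. Of 5 upper-layer genes 2 were higher in Rorb-type cells (Cux2 and Rasgrf2) and 0 lower. Of 33 transcription factors 12 were higher in Rorb-type cells, among them Cux1, Cux2, Nr2f1, Mef2c and Foxp1, and 8 were lower, among them Fezf2, Bcl11b, Bcl11a, Nfib, Sox5 and Lhx2. Immediate early genes, which neurons induce with activity and with dissociation, had 7 of 20 higher in Rorb-type cells (Egr1, Dusp1, Nr4a1, Bdnf, Arc, Btg2 and Ier2) and 0 lower (median log2 0.37, against 0.01 over all genes). Wnt pathway genes were split, with Wnt9a, Wnt10a and Frzb higher in Rorb-type cells and Rspo2, Wnt7b, Dkk3, Wnt4 and Apc higher in Etv1-type cells, of 14 tested. The receptor genes Crhr1 and Htr2a were higher in Rorb-type cells, and the peptide gene Grp in Etv1-type cells. Equal numbers of cells per library gave 218 calls in place of 905.

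Area was tested over the 7 libraries, with a term for genotype. In members, 335 genes (3% of 11157) were higher in the MC and 328 (2.94%) lower, by edgeR at an adjusted p below 0.05. The MC was measured in 1 library per genotype, so these p-values rest on 2 MC libraries. The number of calls was 181 without MC CTRL, 204 without MC DTA and 869 without PFC DTA replicate 3.

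Grp, the precursor of gastrin-releasing peptide, was lower in the members of the MC. Its level was 33.2 and 46.4 CPM in the control and 32.7, 58.7 and 72.7 CPM in the DTA libraries of the PFC, and 1.097 (CTRL) and 1.71 CPM (DTA) in the MC (log2 -5.11, SE 0.337, adjusted p = 2.0e-08). Nnat was 167 and 153 CPM in the control and 76.2, 139.6 and 85.05 CPM in the DTA libraries of the PFC, and 8.05 (CTRL) and 0.642 CPM (DTA) in the MC (log2 -5.22, SE 0.573, adjusted p = 0.00388). The neuronal nitric oxide synthase gene Nos1 was 27.4 and 27.9 CPM in the control and 7.26, 33.6 and 28.9 CPM in the DTA libraries of the PFC, and 0.732 (CTRL) and 2.78 CPM (DTA) in the MC (log2 -3.81, SE 0.3802, adjusted p = 4.7e-06). For each of these genes both MC libraries lay below all 5 PFC libraries, which was a condition for naming a gene here. The surface glycoprotein gene Cd24a (log2 -3.31), the cadherin Cdh13 (-3.24), Dpysl5 (-3.13), a growth cone protein gene, the vesicle GTPase gene Rab3b (-3.10) and the copine Cpne7 (-2.69) were lower in the MC too, under the same condition. Cdh13 lost its call without MC CTRL (adjusted p = 0.0615) and without MC DTA (0.172).

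Kcnab3, a potassium channel β subunit, had the reverse pattern. Its level was 9.12 and 3.01 CPM in the control and 10.9, 3.87 and 11.97 CPM in the DTA libraries of the PFC, and 54.5 (CTRL) and 50.1 CPM (DTA) in the MC (log2 3.02, SE 0.367, adjusted p = 0.000951). The small heat shock protein gene Hspb3 was 3.91 and 5.59 CPM in the control and 10.9, 9.14 and 10.3 CPM in the DTA libraries of the PFC, and 33.3 (CTRL) and 32.97 CPM (DTA) in the MC (log2 2.15, SE 0.238, adjusted p = 8.4e-06). Robo3, an axon guidance receptor, was 2.61 and 2.58 CPM in the control and 0, 2.29 and 7.84 CPM in the DTA libraries of the PFC, and 22.3 (CTRL) and 28.9 CPM (DTA) in the MC (log2 2.93, SE 0.347, adjusted p = 3.8e-05). Both MC values of these genes were above all PFC values, as the choice of genes required. Cartpt, the precursor of the CART peptide, was 5.86 and 1.29 CPM in the control and 0, 3.34 and 1.65 CPM in the DTA libraries of the PFC, and 19.4 (CTRL) and 65.3 CPM (DTA) in the MC (log2 3.99, SE 0.424, adjusted p = 0.00024), so the MC libraries themselves differed widely. Dapk2 (2.25), a kinase gene, Cyp26b1 (3.20), which degrades retinoic acid, Tmem215 (2.78) and the receptor tyrosine kinase Met (2.46) were higher in the MC as well. Cyp26b1 lost its call without MC DTA, Met without PFC CTRL replicate 2 or MC DTA, and Tmem215 without any 1 of PFC CTRL replicate 1, PFC DTA replicate 1, MC CTRL and MC DTA. Cyp26b1 also lost its call with DESeq2 (3.54, adjusted p = 0.152). Dapk2 lost it with at least 3 of the 4 gate markers (1.17, adjusted p = 0.123), and Cd24a (-3.68, adjusted p = 0.313) and Cdh13 (-2.99, adjusted p = 0.146) with equal numbers of cells per library.

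**Figure D3:**
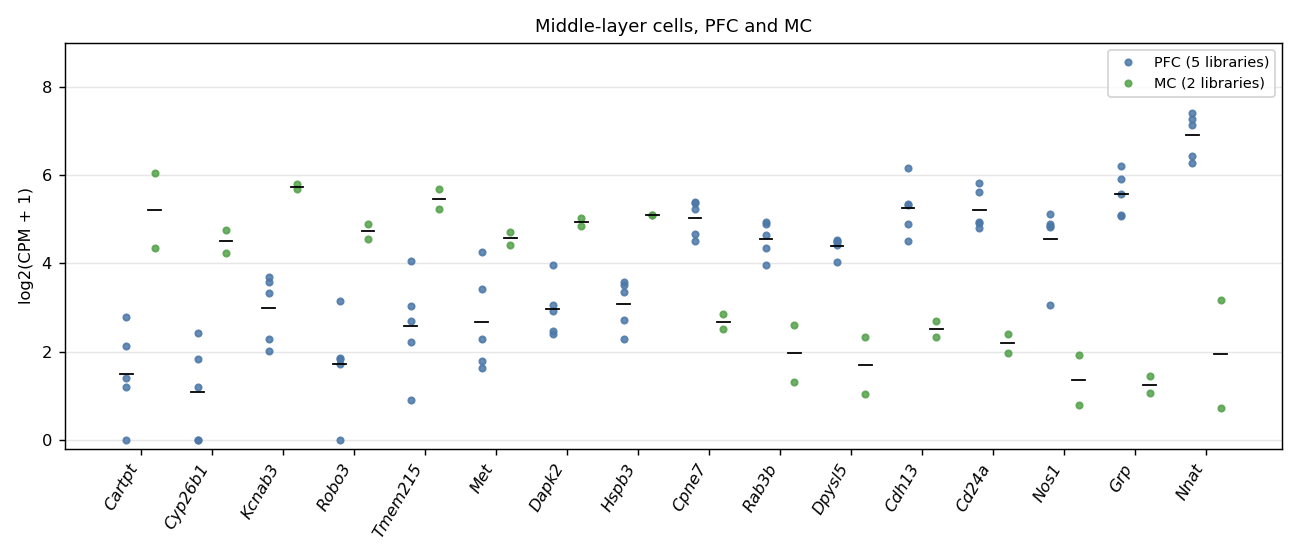
Levels in members, as log2(CPM + 1), of 16 genes in 5 PFC libraries (blue) and 2 MC libraries (green), with bars at the means. They have the 8 largest differences in each direction among called genes chosen to have no overlap between the areas. The MC points of Grp lie at 1.10 and 1.71 CPM against 32.7 to 72.7 CPM in the PFC.

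The mix of Rorb-type and Etv1-type members differs between the areas, so the area difference was also fitted within each type. Grp was lower in the MC in both, at -4.19 (adjusted p = 0.00177) on the log2 scale in Etv1-type and -5.02 (adjusted p = 0.00255) in Rorb-type cells by edgeR. Kcnab3 was higher in both, at 1.88 (adjusted p = 0.0409) and 3.83 (adjusted p = 1.1e-05), and so were Brinp3, at 1.60 (adjusted p = 0.0149) and 1.80 (adjusted p = 2.1e-05), and Robo3, at 2.71 (adjusted p = 0.0315) and 2.71 (adjusted p = 0.00786). Of the 16 genes named above for their area differences, 10 could be tested in Rorb-type cells and all 10 were called there, with the sign they had over all members. In Etv1-type cells 14 could be tested, and 7 of them lost the call, with their signs kept. These were Met, at 0.86 (adjusted p = 0.753), Rab3b, at -1.48 (adjusted p = 0.162), Dpysl5, at -2.14 (adjusted p = 0.0646), Cd24a, at -2.29 (adjusted p = 0.567), Cdh13, at -2.86 (adjusted p = 0.395), Dapk2, at 2.70 (adjusted p = 0.123), and Nnat, at -3.49 (adjusted p = 0.375). Bcl11b, -2.31 over all members, was -1.10 (adjusted p = 0.644) within Etv1-type cells. S100b, 0.91 over all members, was -0.02 (adjusted p = 0.996) there. Fezf2, -0.68 over all members, was -0.59 (adjusted p = 0.421) in Etv1-type and -0.75 (adjusted p = 0.762) in Rorb-type cells. Etv1-type cells alone gave 123 calls and Rorb-type cells 161, from fewer cells, in place of 663.

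Gene lists were also counted for area, where 3% of all genes tested were higher in the MC and 2.94% lower. Of 12 intratelencephalic identity genes 5 were higher in the MC (Ptn, Pou3f2, Cux1, Plxnd1 and Pou3f3) and 0 lower (median log2 0.67, against 0.00 over all genes tested). Of 8 upper-layer genes 3 were higher (Stard8, Lamp5 and Rasgrf2) and Ngb lower. Of 5 layer 5 extratelencephalic genes 0 were higher and 3 lower (Ldb2, Bcl11b and Fezf2; median -1.29). Cux1 was 1.55 (adjusted p = 0.0378) within Etv1-type and 1.61 (adjusted p = 0.0826) within Rorb-type cells. Lamp5 was 0.70 (adjusted p = 0.114) and 1.72 (adjusted p = 0.294), Pou3f2 0.87 (adjusted p = 0.133) and 0.43 (adjusted p = 0.688), Plxnd1 0.46 (adjusted p = 0.628) and 0.69 (adjusted p = 0.566), and Rasgrf2 0.33 (adjusted p = 0.728) and -0.02 (adjusted p = 0.993), so none of these 4 was called within a type. Ldb2 was -2.13 (adjusted p = 0.000236) within Rorb-type and -0.74 (adjusted p = 0.124) within Etv1-type cells, against -1.72 over all members, and Ptn was called in both. The 10 middle-layer genes gave 2 higher (Plcxd2 and Kcnh5) and 2 lower (Tcerg1l and Ctxn3). In total 6 of 38 transcription factors were higher in the MC and 2 lower, the latter near the share over all genes.

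Channel and receptor genes were counted in the same way, against 3% higher and 2.94% lower over all genes tested. Of 51 potassium channel genes 13 were higher, among them the tandem-pore channel Kcnk2, the fast delayed rectifier Kcnc2, and Kcnip2, and 3 were lower (the calcium-activated channels Kcnn2 and Kcnn3, and Kcnab1; median 0.24). Kcnc2 stood at 21.5 and 33.5 CPM in the control and 25.4, 17.4 and 18.6 CPM in the DTA libraries of the PFC, and 75.7 (CTRL) and 61.4 CPM (DTA) in the MC (log2 1.60, SE 0.175, adjusted p = 7.1e-06), and was 1.51 (adjusted p = 0.00448) within Etv1-type and 1.40 (adjusted p = 0.0314) within Rorb-type cells. Kcnk2, 1.66 over all members, was 0.68 (adjusted p = 0.767) and 1.18 (adjusted p = 0.4), and Kcnip2, 0.96 over all members, was 0.46 (adjusted p = 0.689) and 0.73 (adjusted p = 0.0967), with neither called within a type. Of 14 GABA receptor genes 3 were higher, among them Gabrd, and 0 lower. NMDA and metabotropic glutamate receptors were split, with 2 of 11 higher (Grin1 and Grin2a) and 3 lower, among them Grin3a and Grm8. Of 18 monoamine and acetylcholine receptor genes Htr2a, Adra1b and Htr1f were higher and the dopamine receptor Drd1 lower. Htr2a, a serotonin receptor of cortical pyramidal cells, stood at 35.8 and 32.2 CPM in the control and 29.04, 38.3 and 30.1 CPM in the DTA libraries of the PFC, and 69.1 (CTRL) and 94.2 CPM (DTA) in the MC (log2 1.29, SE 0.162, adjusted p = 3.4e-05). Htr2a was 1.41 (adjusted p = 0.00851) within Etv1-type and 0.61 (adjusted p = 0.441) within Rorb-type cells. Adra1b was 1.46 (adjusted p = 0.00146) and -0.72 (adjusted p = 0.377), with opposite signs.

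Adhesion, release and guidance genes had calls in both directions, against 3% higher and 2.94% lower over all genes tested. Of 23 cadherin and protocadherin genes Cdh6, Pcdh20, Cdh22, Cdh20 and Pcdh9 were higher in the MC and Pcdh17, Pcdh19, Cdh13, Pcdh8 and Pcdh15 lower. Cdh6 was 3.65 (adjusted p = 4.9e-05) within Rorb-type and 1.17 (adjusted p = 0.0798) within Etv1-type cells. Of 27 transmitter release genes Slc17a6, the second vesicular glutamate transporter, Cplx1, Cplx2 and Vamp1 were higher and Doc2b, Syt4 and Syt17 lower. Of 44 axon guidance genes 6 were higher (Robo3, Unc5d, Sema7a, Plxnd1, Robo2 and Sema3a) and 2 lower (Efnb3 and Sema3d). The 2 lower guidance genes are near the share over all genes. In the Wnt pathway Frzb and Wnt10a were higher and Wnt7b and Rspo2 lower of 20.

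Of all genes tested, 3% were called higher in the MC and 2.94% lower. Near these shares, clock genes had 0 calls of 18 and immediate early genes had 1 (Nr4a3, lower) of 23. Of the 23 immediate early genes, 2 had higher fitted values in the MC (median -1.09). The summed level of these genes was 4659 and 2178 CPM in the control and 2831, 2611 and 5941 CPM in the DTA libraries of the PFC, and 2162 (CTRL) and 2393 CPM (DTA) in the MC, so the areas overlapped. Other lists moved with area too. The 12 tested mitochondrially encoded genes all had higher fitted values in the MC (median 0.27, 0 called), 19 of 83 ribosomal protein genes did (median -0.17, 1 called lower), 2 of 8 astrocyte markers did (median -0.91, Mfge8 called lower) and 0 of 7 blood cell markers did (median -1.37, 0 called). The part of these in the area differences was not tested. Oligodendrocyte markers had 2 of 8 higher (Trf and Mog; median 1.91), with the high sum of MC CTRL given above. Without the 4 cells that held most of it, the difference of Trf went from 2.38 (adjusted p = 0.0045) to 0.68 (adjusted p = 0.47), while Grp, Kcnab3, Nnat and Cux1 moved by less than 0.1.

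Some area differences were larger or smaller in members than in the other excitatory neurons of the same libraries. By the interaction of area and population in edgeR, 98 genes (0.753% of 13014) had a higher and 94 (0.722%) a lower MC minus PFC difference in members. Grp fell further in members, from 32.7 to 72.7 CPM in the PFC to 1.10 and 1.71 CPM in the MC, whereas other excitatory neurons went from 71.6 to 123 CPM to 20.02 and 20.8 CPM (log2 -2.80, SE 0.338, adjusted p = 3.6e-08). Bcl11b was 33.2 and 38.3 CPM in the control and 50.8, 44.8 and 18.6 CPM in the DTA libraries of the PFC, and 9.51 (CTRL) and 5.35 CPM (DTA) in the MC in members, and in the other cells 113 and 98.4 CPM in the control and 73.2, 105 and 65.2 CPM in the DTA libraries of the PFC, and 90.6 (CTRL) and 56.8 CPM (DTA) in the MC (log2 -1.89, SE 0.223, adjusted p = 4.3e-08). Camk2d, a subunit of calcium/calmodulin-dependent kinase II, was 145 and 209 CPM in the control and 116, 162 and 105 CPM in the DTA libraries of the PFC, and 52.3 (CTRL) and 47.5 CPM (DTA) in the MC in members, while the MC values of the other cells, 102 and 90.3 CPM, lay inside their PFC range (log2 -1.31, SE 0.132, adjusted p = 9.7e-11). The other excitatory neurons hold several classes, and their mean levels differed in what they did between the areas. In upper-layer cells Bcl11b went from 32.7 CPM in the PFC to 17.4 CPM in the MC and Grp from 126 to 10.2 CPM, whereas in corticothalamic cells Bcl11b went from 149 to 200.4 CPM and Grp from 56.4 to 59.7 CPM. Igsf21, a synaptic adhesion gene, and Cdh13 had interactions of -1.37 and -1.33.

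Of the genes with the opposite sign, Kcnab3 rose more in members, since the other excitatory neurons reached 21.3 and 20.6 CPM in the MC from 4.04 to 10.3 CPM (log2 1.24, SE 0.245, adjusted p = 0.000908). The cadherin Cdh8 had an interaction of 1.17, with the MC levels of members inside their PFC range and those of the other cells below their own. The proteoglycan Spock3 had an interaction of 1.18. In members Spock3 stood at 65.7 and 72.1 CPM in the MC, against 35.8 to 65.3 CPM in the PFC. In the other cells it stood at 24.7 and 25.7 CPM, against 24.9 to 53.1 CPM. The long noncoding RNA Rmst was lower in the MC in both populations and less so in members (log2 1.36, SE 0.247, adjusted p = 0.000233). Rmst, Kcnab3 and Cdh13 lost the call without MC DTA. With at least 3 of the 4 gate markers 6 of the 9 genes lost it, namely Bcl11b (-0.96, adjusted p = 0.514), Cdh13 (-0.99, 0.583), Igsf21 (-1.19, 0.0643), Kcnab3 (1.43, 0.159), Cdh8 (0.83, 0.312) and Rmst (0.88, 0.518). With equal numbers of cells Bcl11b (-1.85, adjusted p = 0.0762), Cdh13, Kcnab3, Cdh8, Spock3 and Rmst lost it, and with DESeq2 Kcnab3 did (1.24, adjusted p = 0.0672). With the other cells matched to the members in UMIs per cell, 98 genes were called in all, Rmst went to 0.50 (adjusted p = 0.77), and with each cell thinned 0 genes were called.

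**Figure D4:**
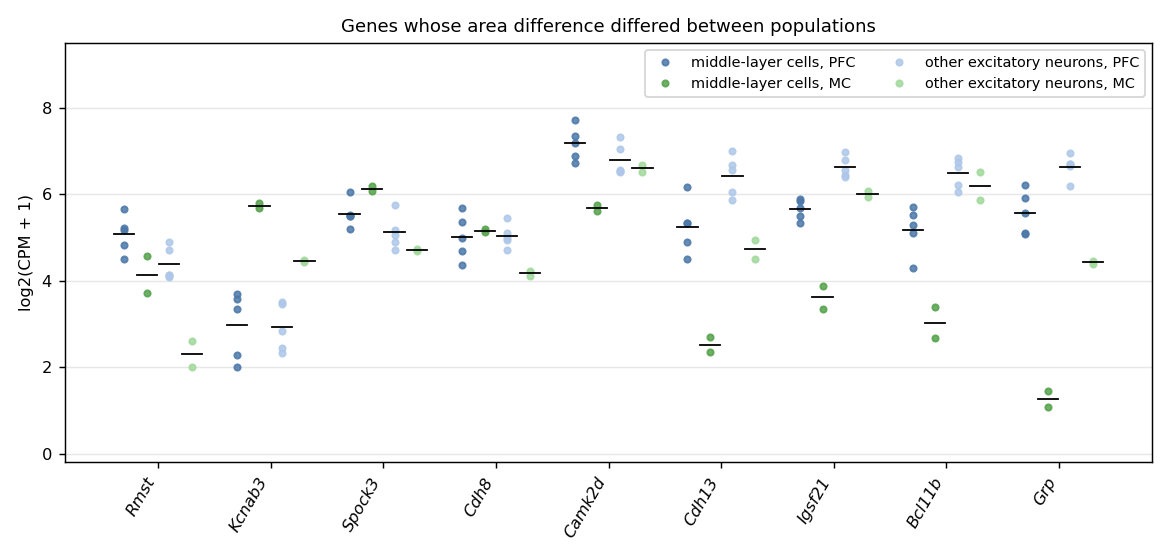
Levels, as log2(CPM + 1), of 9 genes named for the interaction of area and population, in members (dark) and other excitatory neurons (light) of the PFC (blue, 5 libraries) and MC (green, 2 libraries), with bars at the means. Bcl11b lies at 9.51 and 5.35 CPM in the MC members and at 90.6 and 56.8 CPM in the other excitatory neurons of the MC, which include upper-layer cells at a mean of 17.4 CPM and corticothalamic cells at 200.4 CPM.

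The main question of the design is whether loss of these retinal cells goes with a change in cortical gene expression. In PFC members, 0 of 10877 genes (0%) passed an adjusted p below 0.05 in edgeR for DTA against CTRL, with 331 genes at an unadjusted p below 0.05. DESeq2 also called 0, with 86 genes at an unadjusted p below 0.05. With 2 against 3 libraries this does not show that the genotypes were alike. The genes named below are those with the smallest p in each direction.

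S100a6 had the smallest p of the genes higher in DTA. It stood at 18.2 and 15.5 CPM in the control and 72.6, 32.9 and 61.9 CPM in the DTA libraries of the PFC, with no overlap (log2 1.60, SE 0.323, adjusted p = 0.858 by edgeR). Without PFC DTA replicate 2 it passed the threshold (log2 1.99, adjusted p = 0.00852), as it did without a filter on low counts (log2 1.61, adjusted p = 2.0e-05). S100a6 was also higher in Rorb-type than in Etv1-type cells, and the Rorb-type share of members overlapped between the PFC genotypes. Nov, a secreted matrix-associated protein gene, stood at 119.9 and 78.7 CPM in the control and 145, 193 and 175 CPM in the DTA libraries of the PFC (log2 0.86, SE 0.209, adjusted p = 0.892). The lysosomal protease gene Lgmn stood at 59.3 and 49.4 CPM in the control and 87.1, 77.01 and 102 CPM in the DTA libraries of the PFC (log2 0.74, SE 0.211, adjusted p = 1). Brinp3 stood at 38.4 and 33.1 CPM in the control and 39.9, 64.5 and 77.6 CPM in the DTA libraries of the PFC (log2 0.92, SE 0.235, adjusted p = 0.892).

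Among the genes lower in DTA, Mctp1 stood at 44.95 and 43.4 CPM in the control and 25.4, 25.8 and 19.8 CPM in the DTA libraries of the PFC (log2 -0.88, SE 0.226, adjusted p = 0.892 by edgeR). Ttc8, a component of the BBSome of the cilium, stood at 35.8 and 51.6 CPM in the control and 18.2, 24.8 and 21.9 CPM in the DTA libraries of the PFC (log2 -0.91, SE 0.235, adjusted p = 0.892). Tmem91 had 137 and 159 CPM in the control and 109, 103 and 67.7 CPM in the DTA libraries of the PFC, and Zfp266 had 35.2 and 55.9 CPM in the control and 25.4, 29.5 and 25.6 CPM in the DTA libraries of the PFC. These 8 genes were chosen for their small p, so the separation of their groups is a description and no result. Each of the 34 gene lists had 0 calls. The upper-layer genes had 7 of 8 fitted values higher in DTA (median log2 0.67, against 0.01 over all genes tested), and their sum was 578 CPM in PFC DTA replicate 3 and 214 to 294 CPM in the other 4 PFC libraries; the part of that library in the genotype values of these genes was not tested. Astrocyte markers had 7 of 8 fitted values higher in DTA (median 0.74), inhibitory neuron markers 0 of 4 (median -1.11) and oligodendrocyte markers 0 of 5 (median -0.68). The summed astrocyte level was 827 and 743 CPM in the control and 871, 683 and 866 CPM in the DTA libraries. The part of these cells' RNA in the genotype values was not tested. Immediate early genes had 15 of 23 higher (median 0.25) and clock genes 6 of 18 (median -0.03).

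**Figure D5:**
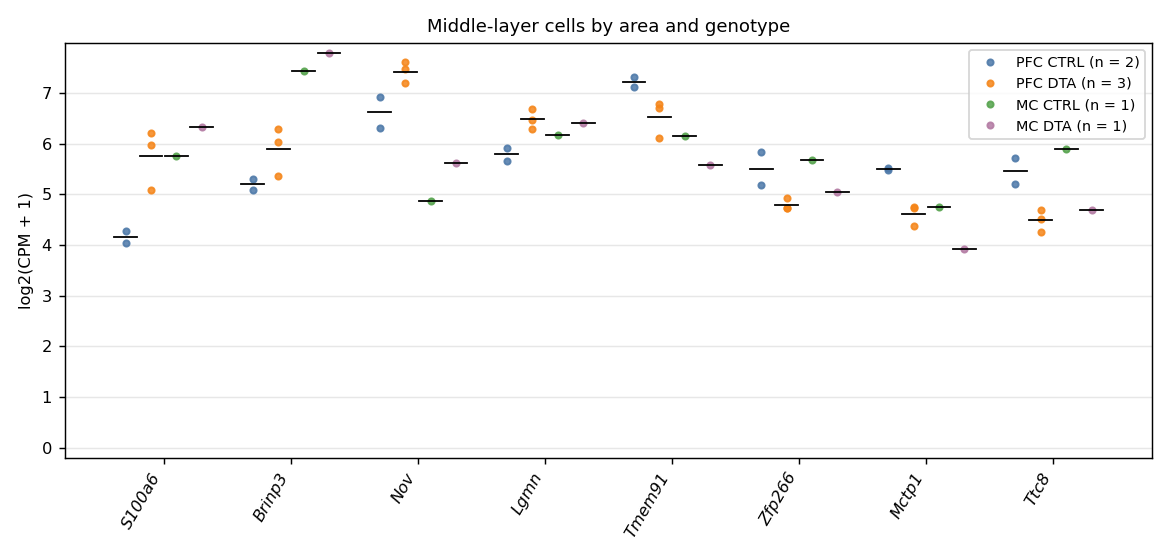
Levels in members, as log2(CPM + 1), of the 8 genes with the smallest p for genotype in the PFC, by area and genotype; each point is 1 library and bars are means. The genes were chosen for their small p and none passed the adjusted threshold, and the MC values come from 1 library per genotype.

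The genotype difference of members was also set against that of the other excitatory neurons. Of 12375 genes 0 (0%) passed in edgeR, with 344 at an unadjusted p below 0.05, and DESeq2 called 0 with 56. The smallest p belonged to Btg1 (log2 0.74), Cdkn1c (0.95) and Cherp (0.71) with a higher, and Nptx2 (-0.72), A2ml1 (-0.68) and Rora (-0.57) with a lower difference in members, at adjusted p-values of 0.970 to 1. The 9 astrocyte markers all had a higher fitted difference in members (median 0.81). Rora, a nuclear receptor related to Rorb, stood at 128 and 94.6 CPM in the control and 189, 51.3 and 106 CPM in the DTA libraries of the PFC in members.

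The MC had 1 library of each genotype and allows no test. The log2 ratio of DTA to CTRL members, with an exact Poisson interval that covers counting error only, was 0.58 (95% interval 0.30 to 0.87) for S100a6, 0.76 (0.38 to 1.154) for Nov, 0.36 (0.20 to 0.52) for Brinp3 and 0.24 (-0.01 to 0.50) for Lgmn. It was -0.88 (-1.38 to -0.37) for Mctp1, -1.24 (-1.59 to -0.88) for Ttc8, -0.58 (-0.87 to -0.29) for Tmem91 and -0.64 (-0.99 to -0.30) for Zfp266. The largest ratios among genes with at least 50 UMIs in each library were 2.32 for Wwox, 1.92 for the noncoding RNA Bc1 and 1.80 for Crym. Among the lowest were -3.43 for Cnp and -2.37 for Mbp, both myelin genes, and without the 4 cells rich in oligodendrocyte RNA these were -1.55 and -0.86.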

How the data were processed

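The deposited tables hold counts of UMIs per gene and cell, as whole numbers, for 7 libraries. Cell Ranger 3.0.2, Seurat and mm10 are named in the submitters' processing notes, with no role given. Deposited cells hold at least 501 genes. Doublets were called per library with Scrublet (scanpy 1.11.5), with a fixed rate in PFC DTA replicate 3, and removed.

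UMIs were summed per library and population, leaving out sums of fewer than 10 cells. The test was edgeR 4.0.16's robust quasi-likelihood fit in 8 comparisons, after filterByExpr (minimum 10 counts) and TMM scaling, with Benjamini-Hochberg adjustment at 0.05. DESeq2 1.42.0 was an alternative. Each SE is |log2 fold change| over the root of the F statistic. Positive values are MC minus PFC, DTA minus CTRL, member minus other population, and Rorb-type minus Etv1-type. P-values measure the spread between libraries of single brains. The tests were checked on simulated data.

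Named genes were, by comparison, the 4 to 8 largest folds each way past the threshold at a mean of at least 20 CPM, or the smallest p where none passed. Genes named for area also had to have no overlap between the PFC and MC libraries. Genes named between populations or types had to differ in the same direction in every library compared. Their consistency across libraries therefore follows from the choice. The interaction names 5 each way, and the genotype interaction 3. Predicted genes were not named, and some genes under this rule are not reported here. The members, the 34 gene lists and the tests were chosen with earlier results of these data known.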

Additional observations from a re-analysis of the deposited data

Results flagged for a closer look

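The difference between MC and PFC in members departed from that in the other excitatory neurons for 192 genes, by the interaction of area and population in edgeR. The interaction was positive for Rmst (log2 1.36), Kcnab3 (1.24), Spock3 (1.18) and Cdh8 (1.17). It was negative for Grp (-2.80), Bcl11b (-1.89), Igsf21 (-1.37), Cdh13 (-1.33) and Camk2d (-1.31). Members and other excitatory neurons come from the same 7 libraries, and the mix of cell types within each population also differs between the areas, so a change within cells and a change in the mix cannot be told apart.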

How the results depend on the processing

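The PFC genotype difference in the members' share of excitatory neurons, 1.16 points, ranged from -2.38 (without PFC DTA replicate 2) to 3.65 with 1 library left out, and reversed also without PFC CTRL replicate 2 (-0.81). Genotype calls in PFC members, 0 by edgeR, were 25 without a filter on low counts, 3 with at least 3 of 4 markers and 0 to 2 with 1 library left out. Area calls, 663 in all, were 1004 without the filter, 271 with at least 3 of 4 markers, 29 with thinned cells, 251 with equal cells, 123 and 161 within Etv1-type and Rorb-type cells, and 181 to 869 with 1 library left out. Thinned cells gave 184, 308 and 84 calls and equal cells 1333, 2093 and 1579 against other excitatory, upper-layer and corticothalamic cells. Cells matched on UMIs gave 2690, 3672 and 3271 in the same order. The match with corticothalamic cells was incomplete, as in PFC CTRL replicate 2 with medians of 6120 UMIs in members and 4404 in the others. Rorb-type against Etv1-type gave 413 with DESeq2, 218 with equal cells and 657 to 859 with 1 library left out, and could not be fitted with at least 3 of 4 markers or thinned cells. The 192 area interactions were 56 with DESeq2, 64 with at least 3 of 4 markers, 0 with thinned cells, 31 with equal cells, 98 with matched UMIs and 63 to 277 with 1 library left out. The genotype interaction, 0, gave 3 with at least 3 of 4 markers and 0 to 2 with 1 library left out. The interaction of Bcl11b turned to 0.19 with thinned cells. The cause was not tested. With the replicate number as a block, the genotype comparison and its interaction both had 0 calls. Same-numbered PFC libraries deviated with correlations of 0.036. With 2 control libraries the deviations of 1 mirror those of the other, so these values cannot tell whether animals were paired. The labels do not say that a number pairs animals. The matched-UMI comparison, the within-type fits and the fit without cells rich in oligodendrocyte RNA were chosen after seeing the data. PFC DTA replicate 1, with 39 members, sets the limit of depth.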
